A study of Mus musculus with 2931 samples.

Results

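A set of 5 genes of antigen presentation by major histocompatibility complex (MHC) class II is described here in mouse lung endothelium (EC, the lining of blood and lymph vessels), one cell at a time. They are H2-Aa, H2-Ab1 and H2-Eb1, which encode chains of the class II molecules, Cd74, which encodes the invariant chain, and Ciita, which encodes the class II transactivator. They were taken by symbol as 5 of the 18072 genes of the deposited count table. The set was chosen by membership in the pathway with read counts of this table in view, without a threshold on any value, so levels and tests of the same counts describe these genes and are not independent support for the choice. The cells were sorted from distal lung of mice before birth at day E18.5 and after birth at days 1, 7 and 21 (P1, P7, P21) kept in normal air, and of P7 mice kept in hyperoxia (air with raised oxygen, whose level and duration the labels do not give). Each of the 5 groups had 1 female and 1 male mouse name, 10 in all. No strain is given, nor whether a name is that of 1 animal or of a pool, so the tests measure the spread between these mouse names. The table held 2931 cells under 10 subtype labels of the authors, and the sequencing runs only partly cross the groups.

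MHC class II molecules carry peptides of proteins taken up by a cell to its surface, where CD4+ T cells read them. An alpha chain (H2-Aa for the A molecule) pairs with a beta chain (H2-Ab1 for A, H2-Eb1 for E). The invariant chain Cd74 holds the new pair and leads it to the compartment in which proteases cut the invariant chain away and H2-DM exchanges its remnant for peptide. Ciita binds no DNA itself. It joins the factors RFX, CREB and NF-Y on the promoters of these genes and sets their transcription, and in non-immune cells it is induced by interferon gamma, in part through Irf1. Dendritic cells, macrophages and B cells carry class II at all times, while capillary endothelium carries it at lower and more variable levels.

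The 3 chain genes are neighbours on chromosome 17 in the GENCODE M21 annotation of GRCm38: H2-Ab1 at chr17:34257689-34269419 on the plus strand, H2-Aa at chr17:34282744-34287823 on the minus strand and H2-Eb1 at chr17:34305867-34316674 on the plus strand. Ciita lies at chr16:10480059-10528418 on the plus strand. Promoter windows from RefSeq (GRCm38.p6, 250 bases before to 50 bases after the start) were matched for 2 of the 5 genes, H2-Aa and H2-Eb1. They are shown because these are the DNA elements through which Ciita acts. The first capitals mark GCAAC, the core letters of the X box bound by RFX, and the second capitals mark TGATTGG, the letters of the Y box bound by NF-Y, each written 5′ to 3′ on the strand of the gene.

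H2-Aa, chr17:34287774-34288073, minus strand: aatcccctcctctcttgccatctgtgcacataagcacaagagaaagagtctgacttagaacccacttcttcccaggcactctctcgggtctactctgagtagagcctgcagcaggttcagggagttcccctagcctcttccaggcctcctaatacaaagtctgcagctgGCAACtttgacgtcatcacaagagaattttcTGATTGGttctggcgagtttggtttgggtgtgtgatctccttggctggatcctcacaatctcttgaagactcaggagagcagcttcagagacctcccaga

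H2-Eb1, chr17:34305617-34305916, plus strand: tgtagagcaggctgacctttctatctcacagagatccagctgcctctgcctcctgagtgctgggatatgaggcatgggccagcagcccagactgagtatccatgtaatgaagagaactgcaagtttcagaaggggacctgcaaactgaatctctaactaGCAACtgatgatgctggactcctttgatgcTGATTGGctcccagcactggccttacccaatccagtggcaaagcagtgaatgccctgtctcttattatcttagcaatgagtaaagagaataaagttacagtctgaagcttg

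In H2-Aa the 2 elements began 81 and 50 bases before the start, 31 bases apart, and in H2-Eb1 they began 91 and 61 bases before it, 30 bases apart. GCAAC followed by TGATTGG 18 to 35 bases further along the same strand, searched on both strands, was present in 56 of 32851 promoter windows of this length (0.17%), and TGATTGG alone in 7.82% of them. The windows of H2-Oa, H2-Ob and H2-Eb2, also class II genes, held the pair too, and those of H2-DMa, H2-DMb1 and H2-DMb2 did not. The letters and the spacing were chosen after these promoters had been viewed, and a match describes the sequence, not a site in use.

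Class II reads were rare and sat in few cells. H2-Ab1 had 22988 reads in 83 of 2931 cells, H2-Aa 11954 reads in 45 cells, H2-Eb1 5785 reads in 38 cells, Ciita 2477 reads in 44 cells and Cd74 1866 reads in 26 cells. Many of these cells held only 1 read of the gene (17, 16, 9, 24 and 9 cells in the same order), so a cell was counted as holding a gene at 10 counts per 1000000 reads of the cell (CPM) or more. By that count 61 cells held H2-Ab1 (2.08%), 27 held H2-Eb1, 26 held H2-Aa, 16 held Ciita and 14 held Cd74. Per kilobase of exon, which allows levels of different genes to be compared, the sum over all cells gave 4.34 CPM for H2-Ab1, 1.53 for H2-Aa, 1.44 for H2-Eb1, 0.539 for Cd74 and 0.126 for Ciita. The invariant chain, which is usually the most abundant class II transcript of professional antigen-presenting cells, thus stood below all 3 chain genes here. A single cell supplied 29.8% of all Cd74 reads, 22.9% of the Ciita reads and 1157 of the 5785 H2-Eb1 reads, against 14.5% for H2-Aa and 12.3% for H2-Ab1.

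Over all cells of a mouse, the 3 chain genes and Cd74 were highest in both P21 mice. H2-Ab1, the beta chain of A, had 34.5 CPM in the female and 42.9 CPM in the male mouse of P21, against 10.1 and 3.52 at P7, 1.46 and 0 at P1, and 2.96 and 2.43 at E18.5. H2-Aa, its alpha partner, had 31.7 and 12.9 CPM at P21, 0.0302 and 3.02 at P7, 0 and 0.018 at P1, and 0 and 0.00848 at E18.5. Before birth H2-Ab1 had 675 and 574 reads and H2-Aa 0 and 2, and 661 and 344 of the H2-Ab1 reads came from 1 cell of each mouse. H2-Eb1, the beta chain of E, had 11.1 and 6.18 CPM at P21, 0.401 and 0.301 at P7, 2.36 and 1.96 at P1, and 0.553 and 0.119 at E18.5. Its P1 mice lay above its P7 mice, an order not seen for H2-Ab1 or H2-Aa. The share of all genes with that order was not counted.

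Cd74 had 4.85 and 1.91 CPM at P21, and between 0 and 0.230 CPM in the 6 younger mice in normal air. Ciita did not follow this order. Its highest value, 4.27 CPM, was in the female mouse of P7, and the male mouse of that age had 0.141 CPM. At P21 Ciita had 1.44 and 1.74 CPM, at P1 0.112 and 0.0225, and at E18.5 1.39 and 0.00424. The 2 mice of P7 and of E18.5 thus lay far apart for Ciita, and the group means did not differ beyond that spread (2.21 ± 2.92 CPM at P7 and 1.59 ± 0.211 at P21, mean ± SD, n = 2).

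**Figure D1:**
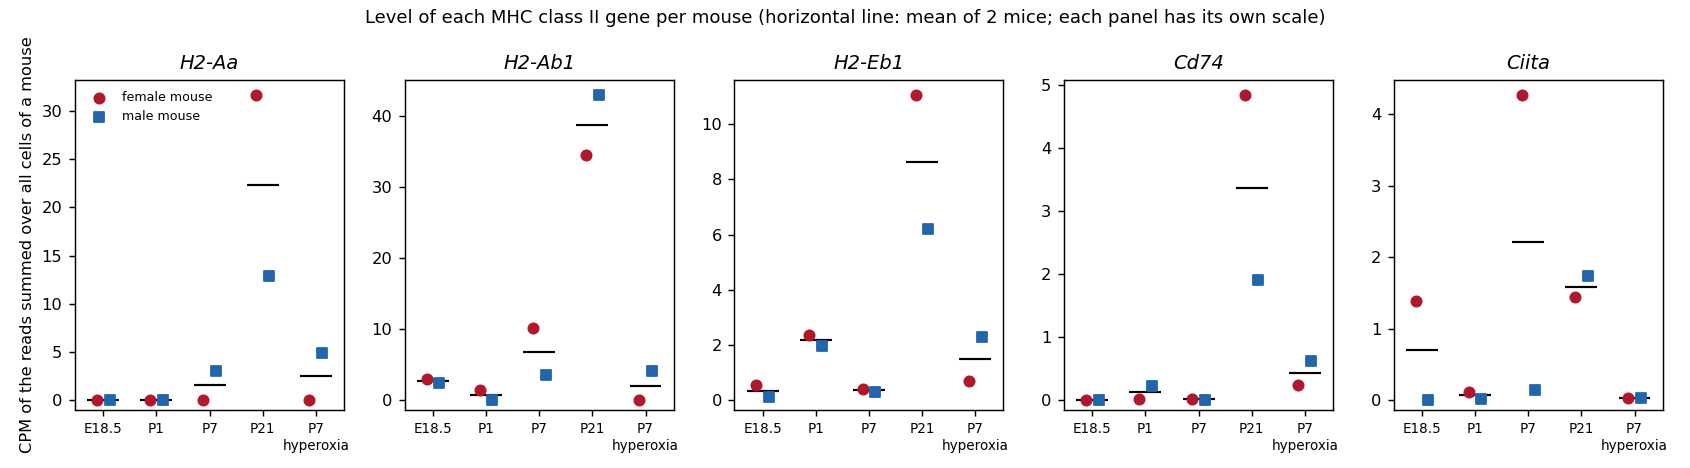
Level of each gene in CPM of the reads summed over all cells of a mouse (y axis, own scale per panel) in the 5 groups (x axis), with a circle for the female and a square for the male mouse and a line at the mean. In H2-Aa, H2-Ab1, H2-Eb1 and Cd74 both P21 mice lie above the other 8 mice, and in Ciita the female mouse of P7 is the highest at 4.27 CPM.

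For 4 of the 5 genes both P21 mice lay above all 8 other mice, an order that 5.54% of all genes with a read showed. In edgeR's quasi-likelihood test for any difference over the 4 ages, H2-Aa (adjusted p = 0.0327) and Cd74 (adjusted p = 0.0463) passed the threshold of an adjusted p under 0.05, 2 of 5 members against 4.12% of the 16348 genes tested. H2-Eb1 (adjusted p = 0.0859), H2-Ab1 (0.173) and Ciita (0.488) did not pass it. Between neighbouring ages (P1 against E18.5, P7 against P1 and P21 against P7) edgeR called 0 of 5 members. Of all genes it called 0.489%, 0.0% and 1.06%. At an unadjusted p under 0.05 it counted 1, 1 and 2 members, and 1634, 1710 and 1899 of the 16348 genes. For P21 against P7, DESeq2 called Cd74 and H2-Eb1 (5.92% of its genes) and limma on mean CPM called 1 member (0.85% of its genes). The pooled CPM of P21 were 51.2 times those of P7 for H2-Aa, 4.17 times for H2-Ab1, 23.4 times for H2-Eb1, 176.0 times for Cd74 and 0.426 times for Ciita. The age call of H2-Aa was lost without the female mouse of E18.5 (adjusted p = 0.119), P1 (0.0632) or P21 (0.0643) or the male mouse of E18.5 (0.102) or P1 (0.0647), and that of Cd74 without any single mouse other than the male mouse of P1 (adjusted p from 0.0545 to 0.141).

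Most class II reads came from Car4- capillaries, the general capillary cells of the alveolus, which the authors label Early and Late. In the 540 Car4- cells of P21, H2-Ab1 had 42.4 CPM in the female and 64.0 CPM in the male mouse. Its values were 14.4 and 2.496 CPM in the Car4- cells of P7 and 0.0122 and 0 at P1. H2-Aa had 33.1 and 18.1 CPM at P21, 0.0109 and 3.56 at P7, and 0 and 0.0101 at P1. H2-Eb1 had 13.7 and 9.39 CPM at P21, 0.721 and 0.274 at P7, and 0.474 and 2.13 at P1. Cd74 had 3.71 and 2.89 CPM at P21, 0 in both mice at P7, and 0.0122 and 0.0101 at P1. Ciita had 1.94 and 2.62 CPM at P21, 2.63 and 0.0342 at P7, and 0.134 and 0.0101 at P1, so that the female mouse of P7 reached the P21 level.

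The same 4 genes had both P21 mice above all 6 other mice in Car4- capillaries, as had 7.75% of all genes with a read there. H2-Ab1 was called for a difference over P1, P7 and P21 (edgeR's quasi-likelihood test, adjusted p = 0.0109), 1 of 5 members against 0.348% of 14660 genes. This call was lost without the male mouse of P21 (adjusted p = 0.088). The reads behind it were 1 at P1, 2720 at P7 and 16151 at P21. For P21 against P7, edgeR called 0 of 5 members and 0.266% of all genes. At an unadjusted p under 0.05 it counted 3 members and 1542 of the 14660 genes. DESeq2 called H2-Ab1, H2-Eb1 and Cd74 (4.76% of its genes) and limma 0. The fitted log2 changes were 2.78 ± 0.993 for H2-Ab1, 4.61 ± 1.70 for H2-Eb1, 3.97 ± 1.87 for H2-Aa and 0.88 ± 2.12 for Ciita (± SE, n = 2 mice against 2), where the median over all genes was 0.0642. Cd74, with 1080 reads against 0, was at least 242.0-fold higher at P21 by a floor of 3 reads over the group. Those 1080 reads came from 8 of 540 cells. This bound counts reads only and does not cover the spread between cells or mice. EdgeR's quasi-likelihood test gave Cd74 an adjusted p of 0.2095 for this change. For P7 against P1, edgeR called 0 of 5 members and 0.0% of all genes. At an unadjusted p under 0.05 it counted 2 members and 1663 of the 14660 genes. DESeq2 called H2-Aa and H2-Ab1 (2.71% of its genes) and limma 0.

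The P21 cells of each sex shared a sequencing run with younger cells. In the run of the female mice, Car4- cells of the CD31 gate had 45.6 CPM of H2-Ab1 at P21 and 0.0124 at P1, and 31.5 CPM of H2-Aa at P21 and 0 at P1. In the run of the male mice, H2-Ab1 had 82.3 CPM at P21 and 3.19 at P7, H2-Aa 30.7 and 4.55, H2-Eb1 15.9 and 0.35, and Cd74 1.75 and 0. The P21 level was thus the higher one within both runs. CD31-gate cells of the female P7 mouse were in a different run. Cells of P21 and P7 from that gate therefore shared a run in the male mice only.

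Over the subtype labels, taken in label and group pairs with at least 8 cells in both mice, Late Car4- capillaries at P21 had the highest mean of 4 genes. They had 54.0 ± 15.6 CPM of H2-Ab1, 26.0 ± 10.7 of H2-Aa, 11.7 ± 3.08 of H2-Eb1 and 3.33 ± 0.553 of Cd74 (mean ± SD, n = 2). The next levels of H2-Ab1 were 9.49 ± 9.825 CPM in Early Car4- capillaries and 7.0 ± 9.90 in venous EC, both at P7, then 4.345 ± 3.77 in nonproliferative embryonic EC at E18.5, and these neighbours did not differ beyond their spread. For H2-Aa the next were venous EC at P7 with 6.235 ± 8.82 CPM and Car4+ capillaries at P21 with 1.91 ± 2.705, again within their spread. Arterial EC I at P7 in hyperoxia followed for H2-Eb1, with 2.43 ± 3.22 CPM, and venous EC at P7 in hyperoxia for Cd74, with 0.543 ± 0.768. Ciita was highest in proliferative EC at P7, with 7.94 ± 10.4 CPM, where 930 of the 935 reads came from the female mouse. These comparisons of labels are a description, since the labels come from the same cells.

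Car4+ capillaries, the large thin cells of gas exchange, held little class II. Of their 332 cells, 4 held H2-Ab1, 1 held H2-Aa and 0 held H2-Eb1, Cd74 or Ciita, which allows a share of up to 0.904% for each of those 3. At P21 H2-Ab1 had 1.25 ± 1.64 CPM in Car4+ and 53.2 ± 15.3 CPM in Car4- capillaries (n = 2). Only H2-Ab1 passed the filter on low counts in Car4+ capillaries, with 0 calls by edgeR, DESeq2 and limma in its 4 comparisons and 0 at an unadjusted p under 0.05, where edgeR called 0.0% of the genes for P7 against P1 and under hyperoxia, 0.00814% for P21 against P7 and 0.0163% for any age. A difference between the 2 capillary classes in the change from P7 to P21 was called by the interaction term of edgeR for no member (0 of 5 called, 0.0068% of all genes, 0 at an unadjusted p under 0.05, 0 by DESeq2 and limma). The low counts in Car4+ cells leave this comparison little precision. In venous EC of P21, the label with the largest share of class II cells, only 17 cells were sorted, and the female mouse had 122.1 CPM of H2-Aa and 39.55 CPM of Cd74 in 13 cells, all of the Cd74 from 1 cell. The 4 cells of the male mouse had 30.4 CPM of H2-Aa and 0 reads of H2-Ab1, H2-Eb1 and Cd74.

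Before birth, H2-Ab1 had the most reads of the 5 genes in nonproliferative embryonic EC. It had 672 and 230 reads there in the female and male mouse of E18.5 (7.01 and 1.68 CPM), in 2 of 134 and 4 of 168 cells, and 661 of the female reads came from 1 cell. At 10 CPM or more, 1 and 2 cells held H2-Ab1 and 2 and 0 cells held Ciita, which had 48 and 1 reads. H2-Aa had 0 and 2 reads there, Cd74 0 and 1, and H2-Eb1 0 in both mice. In the Car4- capillaries of P1, H2-Ab1 had 1 read. The difference in H2-Ab1, which joins a change of age and of label, was called by edgeR's quasi-likelihood test (adjusted p = 0.0191). It was the only call among the 5 members, against 0.494% of 14967 genes. By pooled reads the embryonic level was 703.0 times that of P1, with a counting interval of 126.0 to 27800 for the 902 reads against 1, of which that 1 cell gave 661. That interval counts each read as independent and does not cover the spread between cells or mice. The call was lost without the female mouse of E18.5 (adjusted p = 0.0555), the female (0.0875) or male (0.142) mouse of P1, or the male mouse of P21 (0.0524), and limma gave 0.394. H2-Eb1 went the other way, from 0 reads to 250 in 3 of 303 Car4- cells of P1. EdgeR's quasi-likelihood test did not call it (adjusted p = 0.1355). DESeq2 called H2-Ab1 and H2-Eb1 (3.82% of its genes).

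Under hyperoxia at P7, H2-Ab1 was at or near 0 in the Car4- capillaries of both mice, a difference from normal air that did not pass the threshold of edgeR. The female and male mouse had 0 and 2 reads of H2-Ab1 in hyperoxia (0 and 0.0205 CPM) and 2647 and 73 reads in normal air (14.4 and 2.496 CPM). The groups did not overlap in H2-Ab1, 1 of 5 members below normal air in this way against 14.3% of all genes. H2-Eb1 (0.808 and 2.80 CPM in hyperoxia, 0.721 and 0.274 in normal air) and Cd74 (0.168 and 0.308 against 0 and 0) lay above it in both mice, an order that 16.5% of all genes showed. H2-Aa had 0 and 0.0205 CPM against 0.0109 and 3.56, and Ciita 0.021 and 0.041 against 2.63 and 0.0342, so both of these overlapped. EdgeR called 0 of 5 members and 0.0136% of all genes, with 3 members and 809 of the 14660 genes at an unadjusted p under 0.05. H2-Ab1 came nearest (adjusted p = 0.0719), DESeq2 called H2-Ab1 and H2-Aa (1.25% of its genes) and limma 0. Of 19 alternative settings, 6 called H2-Ab1, among them edgeR in CD31-gate cells alone (adjusted p = 0.0283), and 13 did not. Those 13 included edgeR in the Early Car4- label alone (adjusted p = 0.701), after thinning to 50000 reads (0.115) and with sex as a block (0.121). Over the 19 the adjusted p ran from 4.78e-10 to 0.765. By pooled reads the level in normal air was 1230 times that in hyperoxia, with a counting interval of 339.0 to 10100 for 2720 reads against 2. This interval counts each read as independent, although copies made by PCR are not separate molecules. The 2720 reads came from 7 of 322 cells, so the interval does not cover the spread between cells or mice. Over all labels 1320 of the 3340 H2-Ab1 reads of the female P7 mouse came from 1 cell. Over all cells of a mouse, edgeR called 0 of 5 members and 0.0% of all genes under hyperoxia, and DESeq2 and limma called 0 members. At an unadjusted p under 0.05 edgeR counted 2 members and 826 of the 16348 genes. Ciita lay below normal air in both mice there (0.023 and 0.0247 CPM against 4.27 and 0.141), 1 of 5 members against 14.7% of all genes. H2-Eb1 (0.707 and 2.30 CPM against 0.401 and 0.301) and Cd74 (0.247 and 0.618 against 0.0241 and 0) lay above it in both, 2 of 5 members against 17.6%. H2-Ab1 had 0.0747 and 4.03 CPM in hyperoxia, and 812 of the 815 reads of the male mouse came from 1 lymphatic EC. In the Car4- sums the B cell markers also lay lower in hyperoxia (0.0719 to 0.493 CPM against 1.54 to 3.21 in normal air) and the mesenchyme markers higher (8.39 to 8.86 CPM against 2.60 to 5.27), and their part in the H2-Ab1 difference was not tested. The normal-air mice of P7 enter both this comparison and that of P21 with P7. CD31-gate cells of the female mice in normal air and in hyperoxia came from different runs, while those of the male mice shared a run. The part of the run in the H2-Ab1 difference was not tested.

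The difference of the hyperoxia effects in Car4+ and Car4- capillaries was called by edgeR for 0 of 5 members (0.0% of all genes, 0 at an unadjusted p under 0.05) and by DESeq2 for H2-Ab1 (1.68% of its genes). In proliferative EC, H2-Ab1, H2-Eb1 and Ciita could be tested, and in venous EC Cd74. EdgeR, DESeq2 and limma each called 0 of these under hyperoxia and between ages, and edgeR counted 0 at an unadjusted p under 0.05, where it called 0.0% to 0.0162% of all genes. In proliferative EC, DESeq2 and limma each counted 1 member at an unadjusted p under 0.05 for P7 against P1 and under hyperoxia.

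Cells holding at least 1 of the 3 chain genes at 10 CPM or more are called chain cells below, a class and a threshold set after values had been seen. There were 92 chain cells, of which 74 held 1 chain gene, 14 held 2 and 4 held all 3. At P21, 36 of 348 cells of the female mouse (10.3%, 95% Clopper-Pearson interval 7.35 to 14) and 22 of 359 of the male mouse (6.13%, 3.88 to 9.13) were chain cells. In the other 4 groups the shares ran from 0.781% to 2.83% of the cells of a mouse. The pair of P21 mice lay above all others, and their intervals did not meet those of the mice of E18.5, P1 and hyperoxia. With 1 read or more as the threshold the P21 mean was 10.8 ± 3.04% and the other groups had 2.37% to 3.35%, and with 50 CPM it was 7.67 ± 2.57% against 0.848% to 2.345%. These intervals cover the counting of cells only, not the spread between mice.

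**Figure D2:**
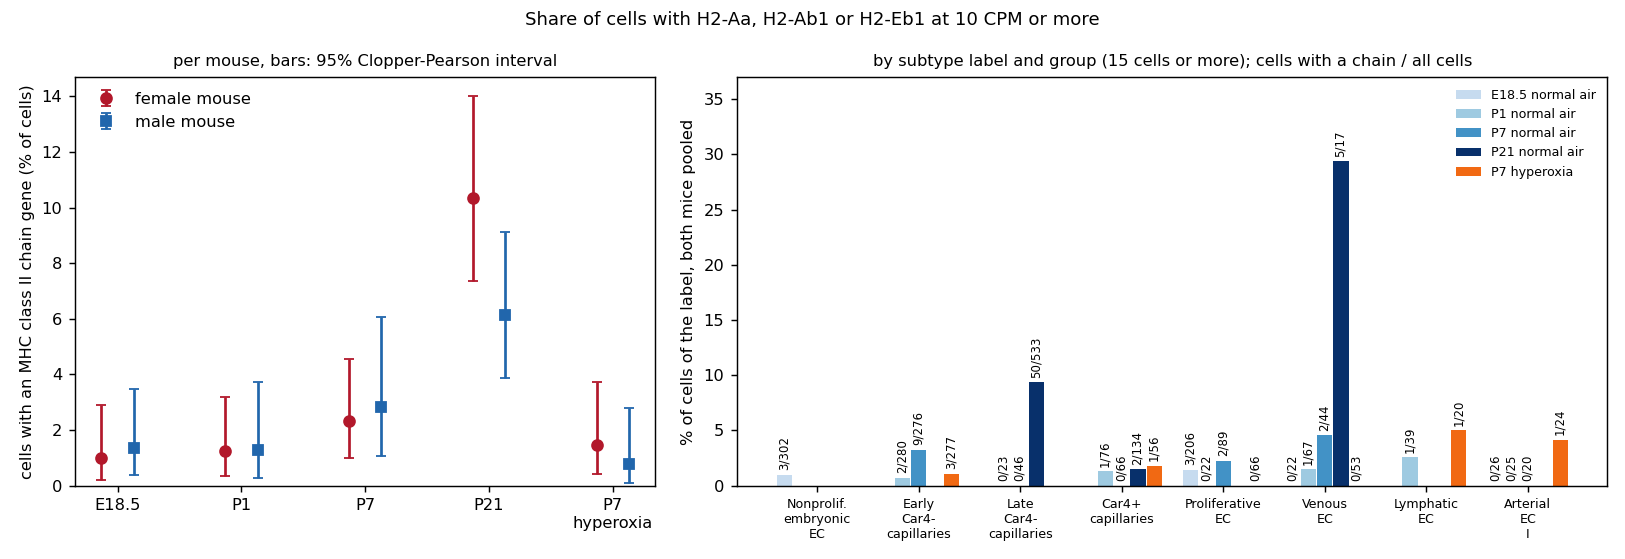
Left, share of chain cells (% of the cells of a mouse, y axis) in each group, with 95% Clopper-Pearson intervals as bars: 10.3% and 6.13% at P21 against 2.83% or less elsewhere. Right, the same share by subtype label, both mice pooled, with the cell counts above each bar: 50 of 533 Late Car4- capillary cells and 5 of 17 venous EC at P21.

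By label, the chain cells of P21 were 50 of 533 Late Car4- cells, 5 of 17 venous EC, 2 of 134 Car4+ cells and 1 of 7 proliferative EC. At P7 in normal air 9 of 276 Early Car4- cells, 0 of 46 Late Car4- cells and 2 of 44 venous EC were chain cells, and in hyperoxia 3 of 277 Early Car4- cells. In the CD31 gate, the run shared by some female mice had 3 chain cells of 296 at E18.5, 4 of 315 at P1 and 31 of 282 at P21. That shared by some male mice had 4 of 292 at E18.5, 6 of 200 at P7, 2 of 254 in hyperoxia and 20 of 238 at P21. The cells of P21 sorted through the gate named mesench held fewer (5 of 65 in the female and 2 of 120 in the male mouse), and that gate holds 185 of the P21 cells. Chain cells had more detected genes than other cells in both P21 mice (medians of 3438 against 3008.5 in the female and 2549.5 against 1777 in the male), and more reads in 1 of them. Chain cells of the P21 female had a median of 820972 reads against 674685.5 in her other cells, those of the male 376734 against 380050, and beyond the thinning that follows its part in the share was not tested. With every cell thinned to 50000 reads, 37 of 348 and 22 of 359 P21 cells had a chain read, and at most 2.87% of the cells of any other mouse.

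Outside P21 the median level in a holding cell was like that of P21 for H2-Aa and lower for the other genes. At P21 the 44 cells with H2-Ab1 at 10 CPM or more had a median of 457.9 CPM (14.07 to 3978), and the 17 such cells of the other groups 238.4 CPM (50.85 to 1369). The 23 P21 cells with H2-Aa had a median of 293.1 CPM, and the 3 cells of other groups 294.4 CPM. For H2-Eb1 the medians were 397.8 CPM in 10 P21 cells and 82.94 CPM in 17 others, for Cd74 275.8 CPM in 8 and 35.01 CPM in 6, and for Ciita 231.1 CPM in 7 and 79.39 CPM in 9. The ranges of P21 and other cells overlapped for all 5 genes, and for H2-Aa the number of holding cells differed far more than the level within them. The H2-Aa level outside P21 rests on only 3 cells (233.1 to 1343 CPM).

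**Figure D3:**
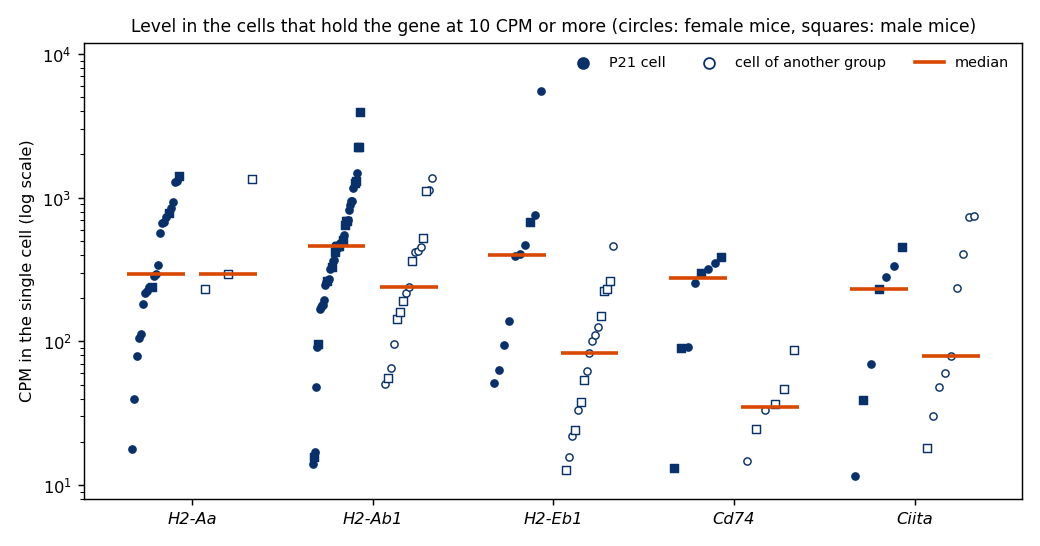
CPM of each gene (log scale, y axis) in every cell that holds it at 10 CPM or more, filled for P21 and open for all other groups, circles for female and squares for male mice, with orange lines at the medians. H2-Aa has 23 P21 cells and 3 others at like medians of 293.1 and 294.4 CPM.

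The partner chains of the A molecule were often found in different cells. Of the 44 P21 cells with H2-Ab1, 11 also held H2-Aa (25.0%), against 12 of the 663 cells without H2-Ab1 (1.81%). All 11 came from the female mouse, in which 26 cells held H2-Ab1 and 20 held H2-Aa, while in the male mouse none of 18 cells with H2-Ab1 was among the 3 with H2-Aa. H2-Eb1 was found in 6 of the 44 cells, again all in the female mouse. Cd74 was present in 4 of the 58 P21 chain cells (6.9%) and in 4 of the 649 other P21 cells (0.616%), and Ciita in 2 of 58 (3.45%) and 5 of 649 (0.77%). Most chain cells thus had no invariant chain transcript at this threshold. A transcript of low copy number can be missed in a single cell, and how often that happened here was not tested.

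Of the H2-DM genes, which load peptide, H2-DMa was held by 7 of 58 chain cells of P21 (12.1%) and 3 of 649 others (0.462%), and H2-DMb1 by 4 of 58 and 3 of 649. Nlrc5, the transactivator of MHC class I genes, was held by 9 of 58 (15.5%) and 49 of 649 (7.55%). The proteases Ctsl, Ctsb and Ctsd, which most cells use, were held by 60.3%, 51.7% and 65.5% of chain cells and by 51.6%, 43.9% and 52.5% of the others. Ctss, the protease of invariant chain removal in dendritic cells and B cells, was held by 0 of 58 chain cells, which allows a share of up to 5.17%.

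The chain cells carried the markers of endothelium and hardly any of leukocytes, as did the other cells. Every cell described here bears an endothelial label of the authors, so this outcome was largely set in advance. Where the class II reads arose was not tested. All 92 held at least 2 of Pecam1, Cdh5, Kdr, Cldn5 and Egfl7 at 10 CPM, as did 2811 of 2839 others, and 91 had a read of Pecam1 or Cdh5. Ptprc (CD45, carried by all leukocytes) reached 10 CPM in 0 of the 92, and the 5 chain cells with a Ptprc read had 1 read each. At least 1 of 5 leukocyte markers was held by 2 of 92 chain cells (2.17%) and 52 of 2839 others (1.83%). For 1 of 5 B cell markers these were 1 of 92 and 50 of 2839. For 1 of 4 T and NK cell markers they were 1 of 92 (1.09%) and 11 of 2839 (0.387%). For 1 of 9 macrophage and dendritic cell markers they were 7 of 92 (7.61%) and 190 of 2839 (6.69%). Of those 9, Tyrobp, C1qa and Marco had 0 reads in chain cells and the rest had reads there. Marco also had 0 reads in the 649 other P21 cells. Epithelial markers were held by 13 of 92 (14.1%) and 367 of 2839 (12.9%). At P21 alone, leukocyte markers were held by 2 of 58 chain cells (3.45%) and 9 of 649 others (1.39%). B cell markers were held by 1 of 58 (1.72%) and 9 of 649 (1.39%), and T and NK cell markers by 0 of 58 and 4 of 649 (0.616%). Macrophage and dendritic cell markers were held by 3 of 58 (5.17%) and 47 of 649 (7.24%). The 13 cells of the CD45 gate held 0 chain cells, but are too few to tell their share from that of all cells.

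Some of these lists differed in level between ages in the Car4- sums. The 5 epithelial markers summed to 78.3 to 171 CPM in the P21 mice and 30.8 to 53.0 CPM at P7, the 5 leukocyte markers to 4.98 to 21.8 and 0.0759 to 3.45 CPM, the 4 T and NK cell markers to 0.551 to 11.1 and 0.0109 to 0.103 CPM, the mesenchyme markers to 7.20 to 11.2 and 2.60 to 5.27 CPM, and the 9 macrophage and dendritic cell markers to 24.9 to 40.55 and 12.01 to 37.9 CPM. Hspa1a, a heat shock gene, reached 477.5 and 707.5 CPM at P21 and at most 2.42 CPM in the other 6. The part of Hspa1a, the mesenchyme markers and the T and NK cell markers in the class II level was not tested. Without the cells holding a Ptprc read, or 3 or more immune markers, or reads of 2 or more epithelial markers, H2-Ab1 kept its age call in Car4- capillaries, and Cd74 lost its age call over all cells (adjusted p = 0.054, 0.0643 and 0.0537 by edgeR).

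Around the class II genes, the interferon gamma arm had the highest median change of the 5 lists from P7 to P21. In Car4- capillaries, 10 of its 11 tested genes (of 13 listed) were higher at P21 than at P7. The median log2 change of the 11 was 1.17, against 0.0642 over all genes. EdgeR called 0 of them and 0.266% of all genes, with 5 of them under 0.05 before adjustment. So were 1542 of the 14660 genes tested, a share to set beside the following lists for P21 against P7 too. DESeq2 called Cxcl10, Irf1 and Socs1 (4.76% of its genes) and limma 0. Irf1, a transcription factor that drives Ciita, had 758.6 and 930.3 CPM at P21, 249.4 and 403.3 at P7, and 167.2 and 155.1 in hyperoxia. Ifngr1, a chain of the interferon gamma receptor, had 579.1 and 562.2 CPM at P21, within the 590.8 and 386.7 CPM of P7. Jak1, the kinase bound to that receptor, had 242.7 and 222.6 CPM at P21 and 223.9 and 237.0 at P7. Gbp4, a guanylate-binding protein, had 122.9 and 163.2 CPM at P21 and 161.8 and 59.06 at P7. Ifng itself had 0 CPM in both P21 mice. Over all cells, Ifngr1, Gbp2, Gbp4 and Cxcl10 were called for an age difference (4 of 11 tested, edgeR's quasi-likelihood test, adjusted p = 0.0219, 0.00245, 0.00263 and 0.00912, against 4.12% of all genes), and Gbp4 rose from E18.5 to P1 (log2 change 3.55 ± 0.613, adjusted p = 0.0175).

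Peptide loading and processing genes gave 8 of 10 tested (of 18 listed) higher at P21 than at P7 in Car4- capillaries, median log2 change 0.554, with 0 called by edgeR (3 at an unadjusted p under 0.05), H2-DMa by DESeq2 and 0 by limma. H2-DMa had 12.1 and 15.9 CPM at P21 and 0 in both mice at P7, but 4.06 CPM in the male mouse of P1. H2-DMb1 had 2.82 and 1.305 CPM at P21 and at most 0.0103 CPM in the other 6 mice. The most abundant of the list were Ctsl (428.7 and 524.4 CPM at P21; 185.0 and 447.7 at P7), Ctsb (255.8 and 375.7; 371.2 and 342.8) and Ctsd (237.0 and 162.3; 146.6 and 217.8), and for all 3 the mice of the 2 ages overlapped. Lgmn, an asparaginyl protease, was the member called over all cells and ages (edgeR, adjusted p = 0.00555). H2-Ob, a chain of the H2-DM inhibitor H2-DO, had 8.69 and 0.251 CPM at P21 and 5.185 and 14.6 at P7.

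The list of factors that act with Ciita showed 7 of 11 tested genes higher and 4 lower at P21 than at P7, median 0.232, with 0 called by edgeR (1 at an unadjusted p under 0.05), DESeq2 or limma. Its most abundant members were Crebbp (278.9 and 254.9 CPM at P21, 236.9 and 451.2 at P7), Creb1 (49.1 and 47.3; 62.2 and 60.6) and Kat2b (35.4 and 56.7; 42.4 and 33.1). RFX genes were present at all ages, such as Rfxank with 55.9 and 49.5 CPM at P21 and 17.3 and 28.25 at P7. Rfxap had 4.64 and 7.15 CPM in hyperoxia and 37.95 and 39.7 in normal air, a difference called by DESeq2 and not by edgeR.

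**Figure D4:**
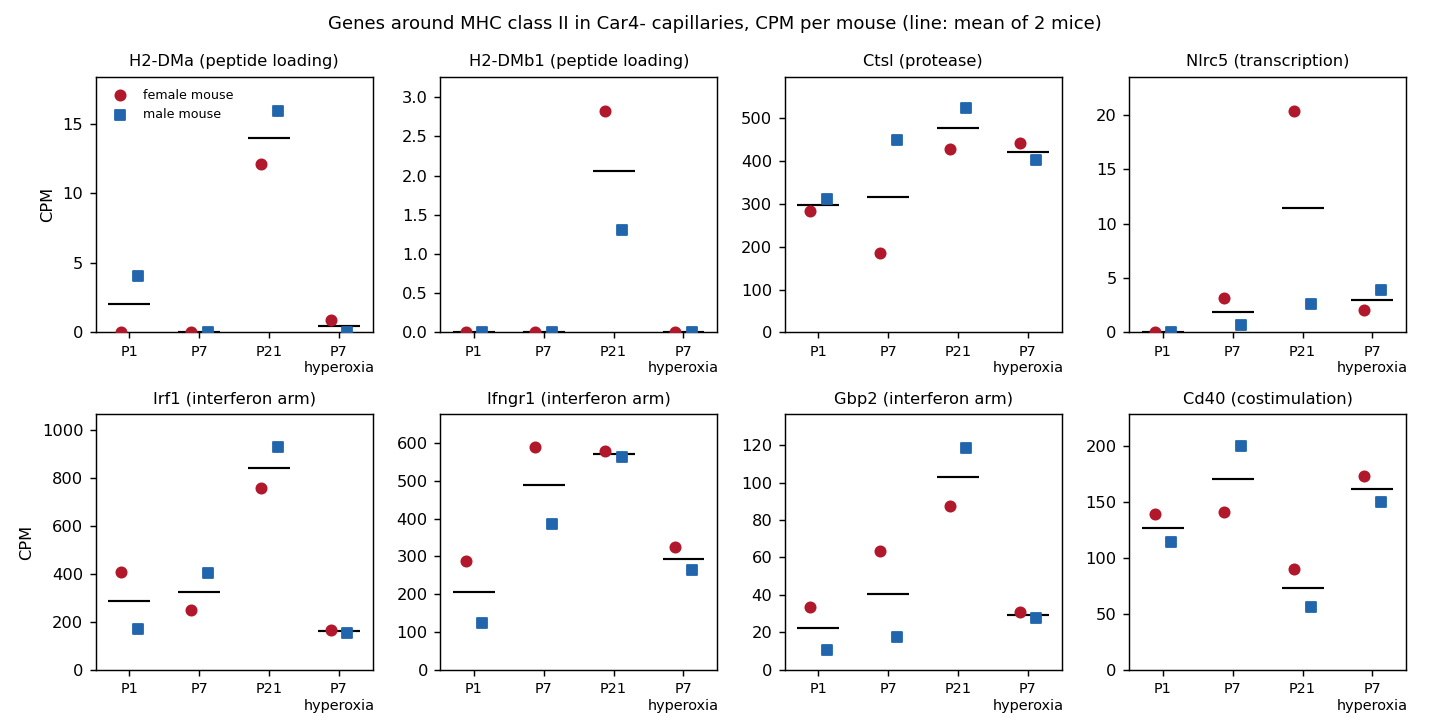
CPM of 8 genes around class II (y axis, own scale per panel) in Car4- capillaries of each mouse, by age in normal air and for hyperoxia at P7, circles female and squares male, line at the mean of 2 mice. H2-DMa, H2-DMb1, Irf1 and Gbp2 have both P21 mice on top, and Cd40 has both at the bottom.

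Of the signals a T cell needs beside class II, Cd80 and Cd86 had at most 0.0486 CPM in any mouse of the Car4- class. Lgals9 (604.4 and 1025 CPM at P21, 633.3 and 516.1 at P7) and Cd40 (89.7 and 56.3; 141.2 and 200) were abundant, as was Vsir (59.3 and 55.65; 44.9 and 54.0). Of this list, 4 of 6 tested genes were higher and 2 lower at P21, median 0.363, with 0 called (edgeR, DESeq2 and limma; 1 at an unadjusted p under 0.05, Cd40, lower at P21). Of the partners of Cd74 as a receptor, 2 of 5 tested were higher and 3 lower, median -0.263, with 0 called by all 3 tools and 0 at an unadjusted p under 0.05. Its ligand Mif had 43.6 and 44.5 CPM at P21 and 57.1 and 59.2 at P7, Ackr3 102.0 and 183.0 against 208.9 and 219.1, and Cd44 48.6 and 51.0 against 51.4 and 79.1. Under hyperoxia edgeR called 0 genes of any of the 5 lists in Car4- capillaries, and 0.0136% of all genes. At an unadjusted p under 0.05 it counted 5 genes of the lists in all, and 809 of the 14660 genes tested. DESeq2 called H2-DMa and Rfxap (1.25% of its genes), and limma 0. H2-DMa had 0.860 and 0 CPM in hyperoxia and 0 in both mice in normal air, so its call rests on 1 mouse.

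Within the P21 Car4- cells, the interferon genes were not set apart in chain cells in the same way in both mice. Irf1 was held by 54.8% of 31 chain cells and 58.1% of 241 others in the female mouse, and by 63.2% of 19 and 53.8% of 249 in the male. Gbp2 was held more often by chain cells in both, 35.5% against 24.9% and 42.1% against 16.9%. Nlrc5 had 25.8% against 10.8% in the female, and 5.26% against 4.02% in the male mouse. Hspa1a had 29.0% against 32.8%, and 73.7% against 50.6%. With 31 and 19 cells per mouse these shares are coarse, and no test was made over cells.

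**Figure D5:**
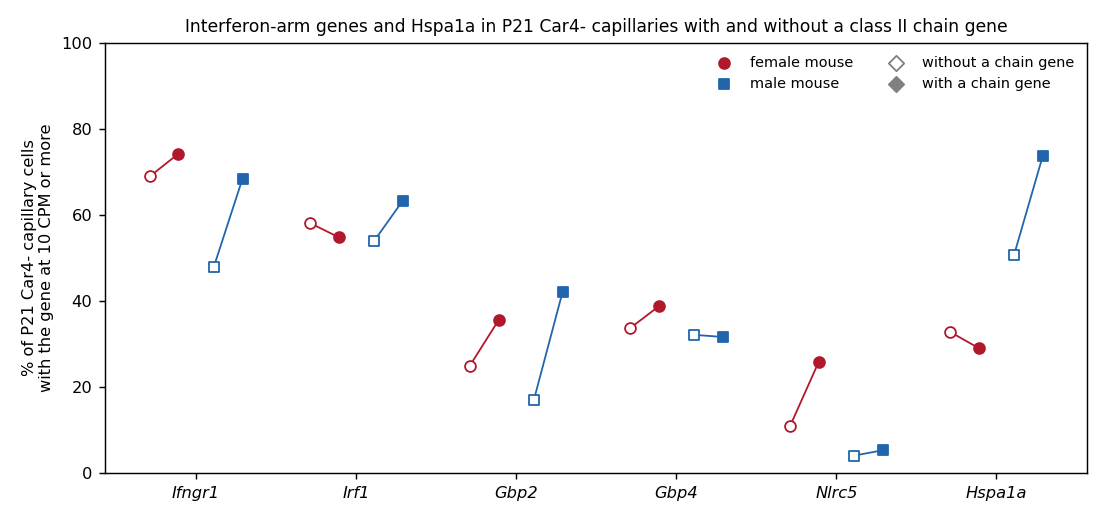
Share of P21 Car4- capillary cells holding each gene at 10 CPM or more (y axis, %), open for cells without and filled for cells with a class II chain gene, joined within the female (circles) and the male mouse (squares). Gbp2 is higher in the filled points of both mice, and Irf1 is lower in the female (58.1% to 54.8%) and higher in the male (53.8% to 63.2%).

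Likeness was measured as Pearson's r of log2(CPM + 1) over 47 sums per mouse and class, among 7267 genes with a mean of at least 20 CPM. The sums share mice and differ in depth, so r is a description. Hspa1a had the highest r with H2-Aa (0.67) and H2-Ab1 (0.617), and Mndal, an interferon-inducible gene, with H2-Eb1 (0.528). Cytl1 was the gene most like Cd74 (0.59) and Eif4g2 the gene most like Ciita (0.458). Further genes among the nearest 5 were Tgtp2 (0.574 with H2-Aa), a GTPase induced by interferon, Gbp2 (0.522 with H2-Ab1 and 0.5 with H2-Eb1), Vcam1 (0.52 with Cd74), an adhesion molecule for leukocytes, and Iigp1 (0.484 with Cd74), another interferon-induced GTPase. In Car4- capillaries Tgtp2 had 154.4 and 349.9 CPM at P21, 61.0 and 20.8 at P7, and 15.8 and 6.22 in hyperoxia. Among the members, r was 0.766 for Cd74 with H2-Aa, 0.73 for H2-Eb1 with H2-Aa and 0.669 for H2-Ab1 with H2-Aa. Ciita was the least like the others, with r from 0.123 with Cd74 to 0.468 with H2-Ab1.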

How the data were processed

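Single cells were sorted into plates and sequenced after cutting cDNA with the Tn5 transposase, without molecular identifiers. The authors deposited whole read counts per gene and cell, not normalized. STAR 2.5.2b, HTSeq 0.10 and a build written GRCh38, the name of a human assembly, are listed per the submitters' processing notes; the build of these mouse counts is thus uncertain, and positions are those of GENCODE M21. Exon lengths (union per gene) come from that annotation, in place of the planned RefSeq coding lengths. A cell had 42095 to 2967985 reads, with a median of 621406, and a mouse 56564316 to 331392982. The counts deposited for the authors' 10 subtype labels were used without new clustering and no doublets were removed.

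Reads were summed per mouse and class where both mice of a group had at least 8 cells, and CPM are reads of a gene per 1000000 reads of the sum. EdgeR 4.0.16 (R 4.3.3, TMM, filterByExpr, quasi-likelihood F test) had group as the only term, and mouse as a term for the interaction. It was fitted on all genes with Benjamini-Hochberg adjustment and called at an adjusted p under 0.05. The fit was tested on simulated Car4- sums in which only genes of higher mean level than the members were changed. That simulation does not cover genes as sparse as the members. Alternatives were DESeq2 1.42.0, RLE size factors, no filter beyond 1 read, CD31-gate cells (2694; 224 cells had the gate named mesench and 13 the CD45 gate), thinning every cell to 50000 reads (without 11 cells of lower depth), limma 3.58.1 on log2(mean CPM + 1), leaving out cells with a Ptprc read, with 3 or more immune markers or with 2 or more epithelial markers, Early Car4- cells alone, sex as a block, and leaving out each mouse. Figures and intervals were made with Python 3.11.15 and scipy 1.17.1. The floor of a ratio was 3 reads over the group.

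The 5 members and the gene lists were chosen with earlier results of these data known. The 5 members were always named, with the called genes of each list in capillaries, its 3 most abundant genes in Car4- capillaries and, for likeness, the 5 genes of highest r; further genes of the lists were named after their values were seen. A gene of the lists is not reported here by name.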

Additional observations from a re-analysis of the deposited data

How the results depend on the processing

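Counts of members called changed as follows. For P21 against P7 over all cells, DESeq2 called 2 and limma 1, in place of 0. For any age over all cells, in place of 2, 3 members were called by DESeq2 and after thinning, and 1 by limma, in CD31-gate cells alone, without cells with a Ptprc read, with 3 or more leukocyte markers or with 2 or more epithelial markers, and with sex as a replicate block, and leaving out 1 mouse gave 0 to 1. In Car4- capillaries the 0 called for P7 against P1 became 2 with DESeq2 and 1 without the filter on low counts (0 to 1 leaving out a mouse), the 0 for P21 against P7 became 3 with DESeq2, and the 0 under hyperoxia became 2 with DESeq2 and 1 without the filter or in CD31-gate cells (0 to 1 leaving out a mouse). For any age in Car4- capillaries the 1 became 4 with DESeq2, 2 without the filter and 0 with limma (0 to 2 leaving out a mouse). For embryonic EC against Car4- capillaries of P1 the 1 became 2 with DESeq2 and 0 with limma (0 to 1 leaving out a mouse), and for the difference of hyperoxia effects DESeq2 called 1 in place of 0. Over all genes DESeq2 called more than edgeR in every comparison run, such as 15.1% against 4.12% for any age over all cells and 5.93% against 0.348% in Car4- capillaries, where limma called 4.08% and 0.102%.

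The log2 change of Ciita from P7 to P21 over all cells, -0.40, turned to 0.20 with limma, 0.68 in CD31-gate cells, 1.31 with the sex block and 3.70 without the female mouse of P7 (-1.37 without the male). In Car4- capillaries it went from 0.88 to -0.14 without the male mouse of P7 (6.16 without the female). That of H2-Aa under hyperoxia over all cells, 0.72, turned to -0.22 without the female mouse of P7 (6.25 without the male) and to -7.86 without the male mouse of hyperoxia. The cause of these changes was not tested.

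With at least 4 cells per mouse, the highest mean became 123.3 CPM for H2-Aa and 101.5 CPM for H2-Ab1 in lymphatic EC of hyperoxia, 80.04 CPM for H2-Eb1 in arterial EC II of P1 and 19.77 CPM for Cd74 in venous EC of P21, each resting on few cells. As a mean over cells, Late Car4- capillaries of P21 stayed highest for H2-Ab1 (50.45 CPM), H2-Aa (17.8 CPM), H2-Eb1 (15.5 CPM) and Cd74 (2.78 CPM).

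Thresholds for chain cells and their gate and thinning were added after seeing the data. With 1 read or more, the share was 2.37% at E18.5, 3.19% at P1, 3.34% at P7 and 3.23% in hyperoxia, with 50 CPM or more 0.848% at E18.5 and 0.902% at P1, and after thinning 1.07% at P1. The nearest genes by likeness were hardly shared (0 to 1 of 5) when the 17 capillary sums alone were used.

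Mice of 1 sex share a sequencing run in part (females of E18.5, P1 and P21, males of E18.5, P7, hyperoxia and P21), so sex and run cannot be told apart there. Over 7149 genes, the deviations of the female mice correlated across the 10 pairs of groups from -0.111 to 0.41, over 0.1 in 7, so the sex block was not taken as a pairing; it moved the any-age count over all cells from 2 to 1 and changed no other count of members called. Most members rest on a handful of cells per mouse, which limits every comparison outside Car4- capillaries of P21.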
